A study of Homo sapiens with 6 samples.

Results

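The Mediator complex genes are the protein-coding genes whose symbol is MED followed by a number, with or without a final L, together with CDK8, CDK19 and CCNC. The rule uses names alone and no measured value. It found 33 genes, each with 1 counted transcript, among 18964 protein-coding transcription units (TUs) and 37255 TUs in all that had an annotated length. They were measured in K562, an established line of chronic myelogenous leukemia cells grown without any treatment, so the comparison is between 2 assays and not between 2 conditions. Total RNA-seq after depletion of ribosomal RNA (4 libraries) measures how much of each RNA the cells hold. PRO-seq (2 libraries) counts the RNA still attached to engaged RNA polymerases, which is taken here as transcription. By the study, this polymerase occupancy depends on the rate of elongation as well as on the rate of transcription. All 6 libraries came from cells of 1 flask, and their p-values therefore measure the spread between libraries and not between cultures.

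Mediator is a large assembly that carries signals from transcription factors bound at enhancers and promoters to RNA polymerase II. Its head and middle modules touch the polymerase, MED14 runs through the complex as its scaffold, and the tail module receives most of the activators. The kinase module, made of CDK8 or its paralog CDK19, their cyclin CCNC, MED12 and MED13, binds the rest reversibly and keeps the polymerase from binding while it is attached. MED12L and MED13L are the paralogs of MED12 and MED13.

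Counts on TUs ranged from 5732780 to 9002746 per RNA-seq library and were 6993816 and 7245632 for PRO-seq. Levels are given as TPM, a scale on which each TU's counts are divided by its length and by the library's total. RNA-seq counts were divided by exon length, and PRO-seq counts by the TU span less 1000 bp, because by the study's methods the first and last 500 bp were not counted. The labels name 500 bp without saying whether it applies to each end. With 500 bp removed in all, 11 Mediator genes were called above and 16 below in place of the 12 and 16 given further on. Of 8919 mRNAs, 4049 and 4017 were called in that setting. Relative half-life is the ratio of the RNA-seq level to the PRO-seq level of a gene. Elongation rate enters this ratio and was not corrected for here, though the study judged its effect to be limited. It has no time unit and is given on a log2 scale with the median mRNA at 0. A value of 1 thus means that a gene held 2-fold more RNA for its transcription than the median mRNA. It was computed for genes whose PRO-seq level exceeded 10 TPM and whose RNA-seq level exceeded 1 TPM, and a gene was called when its edgeR adjusted p was under 0.05. All 8 erythroid markers of K562 were found in RNA-seq (28.4 to 6290 TPM), while the 4 matched lymphoid and myeloid markers, of 6 listed, reached at most 0.324 TPM. The 3 genes of 9p21, a region K562 cells lack, had at most 1 RNA-seq count each over the 4 libraries. RNA-seq replicates 1 and 3 were closer to each other than to the others (chi-square per degree of freedom 1.11), as were replicates 2 and 4 (1.12), against 1.74 to 2.11 for the other pairs. Each was kept as a library. With the counts of each close pair summed, 11 Mediator genes were called above the median mRNA and 16 below, beside 3924 and 3892 of 8733 mRNAs.

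Transcripts of every Mediator gene were found in RNA-seq, and 32 of the 33 genes also had PRO-seq counts. Their RNA levels were spread from 0.0411 TPM for MED12L to 202 TPM for CCNC, with a median of 27.9 TPM over the 32 genes with counts in both assays, beside 8.96 TPM over all 14965 such mRNAs. Their median PRO-seq level was 50.0 TPM beside 20.6 TPM for the mRNAs. Among the 30 genes past the minimums, RNA-seq TPM differed 48.5-fold between CCNC and MED17, and PRO-seq TPM differed 16.1-fold between MED15 and MED17. Of the MED17 bases open to PRO-seq counting, only 8.7% are not shared with another TU of the same strand. With the unshared bases as length, a setting chosen after seeing the data, MED17 had 7.3 TPM in RNA-seq and 149 TPM in PRO-seq. Both fold differences thus depend on the length taken for MED17. When the 33 genes were put in order of their mean level, the library ranges of 20 of the 32 neighboring pairs overlapped in RNA-seq and those of 19 pairs overlapped in PRO-seq, so neighbors in either order mostly did not differ beyond their spread.

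**Figure D1:**
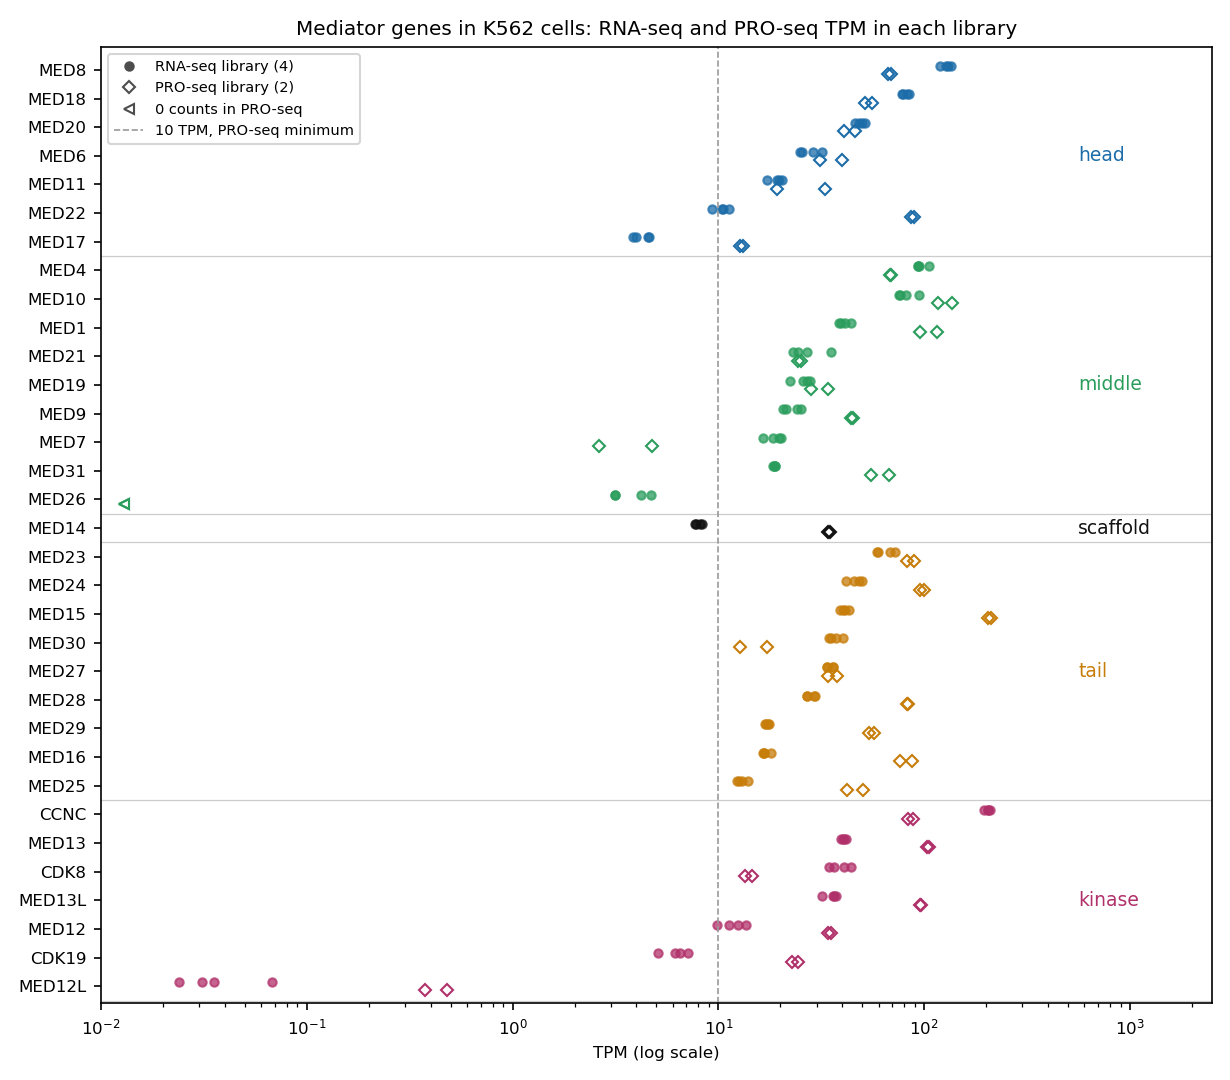
RNA-seq TPM (filled circles, 4 libraries) and PRO-seq TPM (open diamonds, 2 libraries) of the 33 Mediator genes on a log axis, grouped by module and ordered by RNA level. CCNC lies at 196 TPM or more in every RNA-seq library, MED12L stays at 0.068 TPM or less in RNA-seq, and MED26, drawn as a triangle at the left edge, has no PRO-seq counts.

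No relative half-life under the minimums could be given for 3 genes. MED12L (GRCh37 chr3:150804676-151154860) was the longest of the 33 genes, with a span of 350 kb. It had 1, 3, 1 and 1 RNA-seq counts and 34 and 44 PRO-seq counts, or 0.377 and 0.478 TPM in PRO-seq. The 9p21 genes CDKN2A, CDKN2B and MTAP had 0.366, 1.06 and 0 TPM in PRO-seq, on at most 5 counts each. The MED12L level was thus within the range of genes that K562 cells lack, so its transcription is not shown. MED7, a middle subunit that pairs with MED21 at the hinge of the complex, had 18.4, 20.2, 16.4 and 19.8 TPM in RNA-seq but only 2.62 and 4.75 TPM in PRO-seq. MED26, the middle subunit that docks elongation factors, had 4.22, 3.15, 4.71 and 3.16 TPM in RNA-seq and 0 PRO-seq counts in both libraries. The PRO-seq window of MED26 lies wholly inside a TU of the same strand, ENSG00000141979, which held 1021 PRO-seq counts and 0 RNA-seq counts. Among the 596 protein-coding TUs placed this way, 95.5% had 0 PRO-seq counts, against 8.4% of the 17463 inside no counted TU, so the 0 of MED26 does not show that the gene was not transcribed.

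Of the 30 genes tested, 12 lay above the median mRNA in relative half-life and 16 below it, while MED10 and MED11 were not called (edgeR's quasi-likelihood test, Benjamini-Hochberg adjustment over 10053 TUs). These counts are 40.0% and 53.3% of the genes. Of all TUs tested 40.0% were called above and 50.4% below, and of the 8733 mRNAs 45.4% and 44.9%, so the Mediator genes were called in each direction about as often as other TUs. Their median was -0.40 on the log2 scale, beside -0.24 for all TUs tested and 0 for mRNAs by definition. Without TPM minimums, when 14965 mRNAs instead of 8733 set the reference, that median was 0.227. Of 32 genes tested, 17 were then called above and 13 below, and of the 14965 mRNAs 6363 and 4910. The side on which most of the genes lay thus depends on the minimums. The middle of the genes' distribution, from -1.04 to 0.72, was close to that of mRNAs, from -1.06 to 1.08. With full lengths, only MED22 lay under the 10th percentile of mRNAs (-2.08) and only CDK8 over the 90th (2.10). The place of MED17 depends on the length taken, as described below.

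In the head module, 4 of 7 genes lay above the median mRNA (MED8, MED18, MED20 and MED6) and MED22 and MED17 lay below it. The counts in each module stand beside 45.4% of the 8733 mRNAs called above and 44.9% called below. MED8, the subunit that tethers the MED18-MED20 pair, had the second highest RNA level of all the genes, with 128, 130, 119 and 135 TPM. Its PRO-seq levels of 68.8 and 66.7 TPM were only the 13th highest, and its log2 relative half-life was 1.56 (SE 0.103, edgeR adjusted p = 8.1e-15). MED18 (1.23, SE 0.107) and MED20 (0.81, SE 0.0899), which bind each other, lay on the same side. MED6, a conserved subunit at the interface with the middle module, was only just called at 0.28 (SE 0.126, edgeR adjusted p = 0.041). Its call was lost in 9 of 17 alternatives (edgeR adjusted p = 0.44 without PRO-seq replicate 1), and its direction turned to -0.76 without length scaling.

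With full lengths, the lowest relative half-life of the 30 tested genes belonged to MED22, which forms a pair with MED11. MED22 (GRCh37 chr9:136205160-136214558) had 10.4, 10.5, 9.30 and 11.2 TPM in RNA-seq and 86.6 and 89.0 TPM in PRO-seq. It was thus in the 86.5th percentile of mRNAs by transcription but in the 51.8th by RNA level, and its log2 relative half-life was -2.44 (SE 0.108, edgeR adjusted p = 3.7e-19), or 5.42-fold below the median mRNA. Without length scaling its value was -0.18 and was no longer called (edgeR adjusted p = 0.092), its counted transcript having 4366 exon bases for a coding sequence of 600. Its partner MED11 had 0.19 (SE 0.363, edgeR adjusted p = 0.61), on only 16 PRO-seq counts, and was called above without TPM minimums (0.85) and without length scaling (2.88). MED17, the central subunit of the head, had the lowest RNA level of the genes tested, at 3.84, 3.98, 4.59 and 4.53 TPM, with 12.8 and 13.2 TPM in PRO-seq and a value of -0.99 (SE 0.141, edgeR adjusted p = 1.6e-07). Only 8.7% of its PRO-seq window and 57.6% of its exon bases are not shared with the same-strand TU ENSG00000284057. With the unshared bases as length, a setting chosen after seeing the data, the MED17 value was -3.68, against -2.4 for MED22. In that setting MED17 had 7.3 TPM in RNA-seq and 149 TPM in PRO-seq, and CDK19 had a lower RNA level (6.21 TPM). The size of the MED17 value is thus not firm, nor are the ranks of the lowest genes.

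The middle module had 3 genes above (MED4, MED21 and MED19), 3 below (MED31, MED1 and MED9) and MED10 between them among the 7 tested. MED4, a conserved core subunit, reached 93.4, 93.8, 106 and 93.6 TPM in RNA-seq and 68.1 and 69.1 TPM in PRO-seq, for a log2 relative half-life of 1.12 (SE 0.0851, edgeR adjusted p = 2.5e-13). Its counted transcript is an annotated non-stop decay form of only 460 exon bases, and the direction turned to -1.48 without length scaling. MED21, likewise counted on a short form (552 exon bases, no coding sequence annotated), had 0.76 (SE 0.136) and turned in the same way, to -2.31. MED19 had 0.35 (SE 0.156, edgeR adjusted p = 0.034), a call that was lost in 7 of 17 alternatives (edgeR adjusted p = 0.24 without PRO-seq replicate 1).

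MED10 and MED1 were among the most transcribed members. MED10, a small core subunit, had 136 and 117 TPM in PRO-seq and 94.8, 81.4, 76.5 and 75.8 TPM in RNA-seq, which placed it at 0.03 (SE 0.105, edgeR adjusted p = 0.79), beside the median mRNA. It was called above without TPM minimums, at 0.69, and without length scaling, at 0.87. MED1, the subunit that nuclear receptors bind, had 95.3 and 115 TPM in PRO-seq and 39.4, 38.5, 41.4 and 44.2 TPM in RNA-seq, and lay below at -0.73 (SE 0.0662, edgeR adjusted p = 1.5e-11). Without TPM minimums it was at -0.07 and no longer called (edgeR adjusted p = 0.31). Its counted transcript holds 35.2% of the gene's longest coding sequence. MED31, a small partner of MED7, lay at -1.07 (SE 0.130), and at -0.03 without length scaling, where it was not called (edgeR adjusted p = 0.80). MED9, which pairs with MED4, lay at -0.35 (SE 0.106, edgeR adjusted p = 0.003), and it turned to 0.31 without TPM minimums and to 0.07 without length scaling.

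MED14 (GRCh37 chrX:40507557-40594794), the scaffold that joins head, middle and tail, was one of the least abundant RNAs of the complex. It had 7.75, 7.71, 8.14 and 8.30 TPM in RNA-seq and 34.9 and 33.9 TPM in PRO-seq. Its log2 relative half-life was -1.48 (SE 0.0681, edgeR adjusted p = 1.2e-18), or 2.78-fold below the median mRNA, and it was called below in each alternative.

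The tail module held 6 genes below the median mRNA (MED15, MED16, MED25, MED29, MED28 and MED24) and 3 above it (MED30, MED27 and MED23). MED15 (GRCh37 chr22:20861872-20941906), which binds activators such as the sterol-responsive SREBP factors, was the most transcribed gene of the complex, with 205 and 212 TPM in PRO-seq, in the 97.1st percentile of mRNAs. Its RNA level was only moderate, at 38.9, 40.3, 43.1 and 41.1 TPM, so that its log2 relative half-life was -1.72 (SE 0.0457, edgeR adjusted p = 9.1e-25), the second lowest of the 30 genes. The transcript counted for MED15 is an annotated nonsense-mediated decay form with 7.0% of the longest coding sequence, although its 3267 exon bases were all unshared. MED16 had 18.1, 16.7, 16.5 and 16.6 TPM in RNA-seq against 76.0 and 87.5 TPM in PRO-seq, for -1.62 (SE 0.0788, edgeR adjusted p = 4.2e-18). MED25, the target of the viral activator VP16, lay at -1.20 (SE 0.0962), and both MED16 and MED25 stayed called below in each alternative.

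MED30 stood on the other side of the tail. It (GRCh37 chr8:118532952-118552501) had 34.5, 35.1, 40.4 and 37.3 TPM in RNA-seq from only 17.3 and 12.7 TPM in PRO-seq, and its log2 relative half-life of 1.92 (SE 0.140, edgeR adjusted p = 9.5e-14) was the second highest of the 30 genes, 3.79-fold above the median mRNA. MED27 (0.60, SE 0.0769) and MED23 (0.23, SE 0.0619, edgeR adjusted p = 0.001, and 0.065 without PRO-seq replicate 2), the latter a target of the growth-factor-responsive ELK1, lay closer to the median mRNA. Without length scaling MED27 turned to -3.89 and MED23 to -0.10, while MED28 (-0.92, SE 0.0672) and MED29 (-1.05, SE 0.113) turned to 1.51 and 0.95. The MED27 span of 227 kb contrasts with 1095 exon bases, whereas MED28 has 10858 exon bases in a span of 19.5 kb, and length scaling weighs on such genes more than on others. MED24 lay at -0.45 (SE 0.0639, edgeR adjusted p = 1.8e-07) and at 0.21 without TPM minimums.

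The kinase module held both extremes of RNA level and, among the 30 tested genes, the highest relative half-life. CCNC, cyclin C (GRCh37 chr6:99990263-100016536), had the highest RNA level of the complex in every library (196, 204, 203 and 209 TPM), with 83.1 and 88.0 TPM in PRO-seq. Its log2 relative half-life was 1.88 (SE 0.0535, edgeR adjusted p = 5.1e-24), or 3.69-fold above the median mRNA. CCNC lies wholly inside TSTD3 on the other strand, which had 503 PRO-seq counts against 1129 for CCNC, and reads of the 2 genes cannot be told apart if counting did not use strand, a setting not given in the sources used here. Of 905 protein-coding TUs inside a TU of the other strand only, 23.4% had 0 PRO-seq counts, far fewer than the 95.5% of those inside a same-strand TU.

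CDK8 (GRCh37 chr13:26828241-26979375) had 40.8, 34.6, 44.3 and 36.3 TPM in RNA-seq but only 14.6 and 13.4 TPM in PRO-seq. Its log2 relative half-life was 2.11 (SE 0.0795, edgeR adjusted p = 7.1e-21), the highest of the 30 genes past the minimums and 4.31-fold above the median mRNA, and it turned to -0.32 without length scaling. The counted CDK8 transcript is an annotated nonsense-mediated decay form with 35.3% of the longest coding sequence. CDK19 had 7.08, 5.10, 6.5 and 6.16 TPM in RNA-seq and 22.8 and 24.3 TPM in PRO-seq, and lay at -1.29 (SE 0.0809, edgeR adjusted p = 2.4e-15). The RNA-seq ranges of CDK8 and CDK19 did not overlap, nor did their PRO-seq ranges, and their order was opposite in the assays.

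The large subunits of the module that were tested, MED12, MED13 and MED13L, lay below the median mRNA with full lengths and the TPM minimums. MED12L fell under the minimums. MED12, which activates the kinase, had 12.5, 9.89, 13.6 and 11.3 TPM in RNA-seq and 34.2 and 35.4 TPM in PRO-seq, for -0.93 (SE 0.109, edgeR adjusted p = 4.1e-09), a value that turned to 0.52 without length scaling. MED13, which links the kinase module to the rest, had 41.7, 40.9, 40.5 and 39.5 TPM in RNA-seq and 103 and 106 TPM in PRO-seq, for -0.72 (SE 0.0395, edgeR adjusted p = 8.6e-17). It was at -0.06 and no longer called without TPM minimums (edgeR adjusted p = 0.20). Its paralog MED13L had 36.2, 36.5, 37.1 and 31.7 TPM and 96.5 and 95.7 TPM, for -0.80 (SE 0.0432, edgeR adjusted p = 5.9e-17). Replicate 4 of MED13L was lower than the other 3 in RNA-seq.

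**Figure D2:**
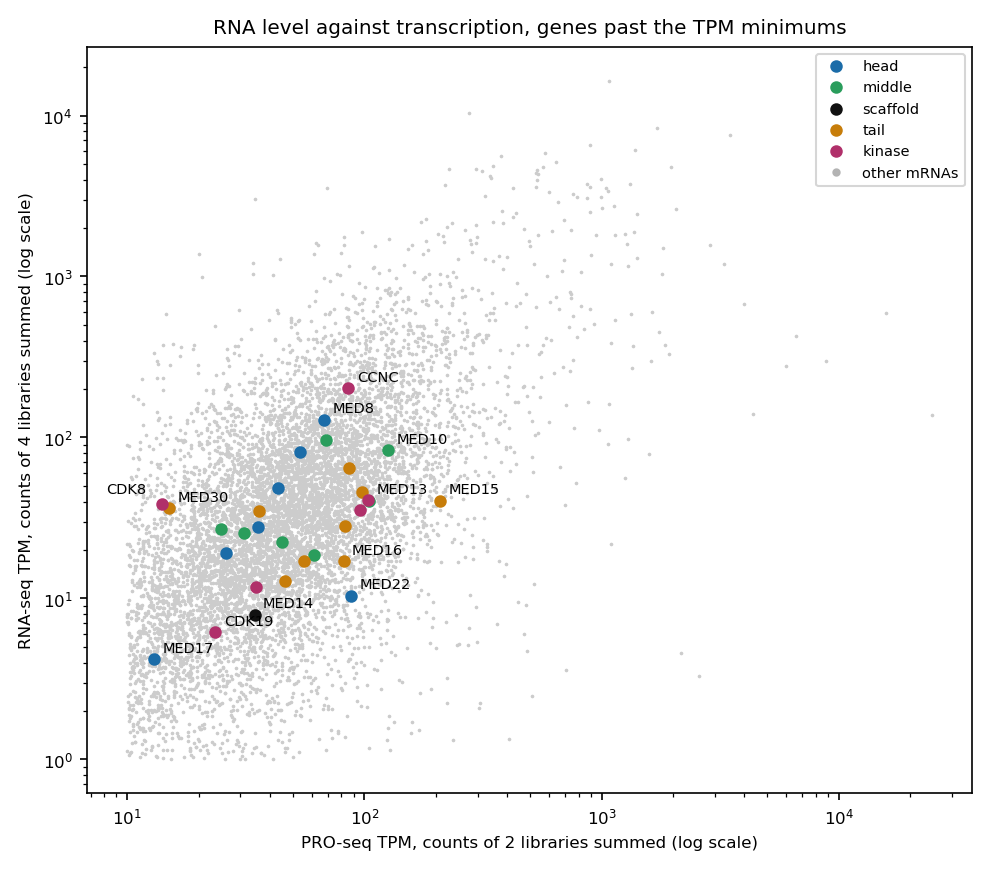
RNA-seq TPM against PRO-seq TPM, both on log axes, for the 8733 mRNAs past the minimums (grey) and the 30 Mediator genes (colored by module). CDK8 and MED30 lie high for their transcription near 15 TPM in PRO-seq, MED15 lies farthest to the right at 209 TPM, and MED22 lies low for its 87.8 TPM.

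The paralogs of the kinase module were compared within each library, as the log2 TPM of one gene less that of the other, with an exact permutation test of 4 RNA-seq against 2 PRO-seq libraries (two-sided, smallest possible p = 0.133, adjusted over 3 pairs). This design cannot reach a p of 0.05. CDK8 exceeded CDK19 in RNA-seq by 2.65 ± 0.13 (SD, n = 4), or 6.30-fold, and was under it in PRO-seq by a difference of -0.75 ± 0.152 (SD, n = 2). The assays differed by 3.41 on the log2 scale (exact permutation p = 0.133, adjusted p = 0.20), with no overlap between their libraries, and the difference was 2.85 without length scaling. With RNA-seq replicates 1 and 3 summed, and 2 and 4 summed, it was 3.4 (exact permutation p = 0.333). MED13 exceeded MED13L by 0.20 ± 0.0828 in RNA-seq (SD, n = 4) and by 0.12 ± 0.0319 in PRO-seq (SD, n = 2), a difference of 0.08 (exact permutation p = 0.267, adjusted p = 0.267) with overlapping libraries. MED12L was far below MED12 in both assays. The ratio of MED12 to MED12L was 284 in RNA-seq, with a 95% exact (Clopper-Pearson) interval from 130 to 776 that covers counting error only, and 81.3 in PRO-seq (63.7 to 105). The assays differed by 1.97 (exact permutation p = 0.133, adjusted p = 0.20), a value that rests on the 6 RNA-seq counts of MED12L. The PRO-seq ratio, in turn, rests on a MED12L level within the range of the 9p21 genes.

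Transcription and RNA level were related across the complex, though loosely. Between a gene's levels in the 2 assays, Spearman's rho was 0.539 over the 32 genes with counts in both assays, beside 0.835 over all 14965 such mRNAs. Over genes past the minimums it was 0.491 for the 30 Mediator genes and 0.551 for 8733 mRNAs. These rhos are across genes of the same libraries, which are not independent replicates, and are given as a description. The Mediator genes past the minimums had a narrower spread than mRNAs, with an SD of log2 TPM of 1.27 against 2.05 in RNA-seq and of 0.99 against 1.24 in PRO-seq. In 7 of the 33 genes the ranks in the assays were 10 or more places apart, CDK8 being 12th by RNA level and 29th by PRO-seq level, and MED22 28th and 7th.

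Genes with more exon bases in the counted transcript, which for several genes is a partial form, tended to have lower values. Across the 30 genes, Spearman's rho of log2 relative half-life was -0.62 with the exon length of the counted transcript, -0.28 with the longest coding sequence of the gene, -0.37 with the number of exons and -0.14 with the span. Without length scaling the same 30 genes gave -0.80 with the span and -0.52 with the longest coding sequence, so these relations depend on the scaling. With it, across 8733 mRNAs these were -0.33, -0.21, 0.06 and 0.03. Exon length is itself the divisor of RNA-seq TPM and thus enters the half-life value, so its rho is not independent of the scaling. The genes were also counted by span, beside 45.4% of all mRNAs tested called above and 44.9% called below. The 13 genes spanning under 20 kb had a median of 0.19, with 6 above and 5 below. The 10 genes from 20 to 80 kb had a median of -0.59 (4 above, 6 below), and the 7 genes of 80 kb or more, CDK8 and MED27 being those above, a median of -0.80 (2 above, 5 below).

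For 25 of the 33 genes a promoter sequence from 250 bases before to 50 bases after the start was held in RefSeq tables of GRCh38.p14. The promoters were searched for 8 short motifs on both strands. The letters AAGATGGC, the core of sites bound by YY1, occurred in the promoters of MED1, MED16, MED18, MED25 and MED29, or 20% of the 25 genes, beside 4.66% of 15842 protein-coding genes with a promoter in the table. The windows of 30 bases around these matches are shown because this motif differed most in its share, a choice made after the shares were seen; the motif is in capitals (GCCATCTT is the same motif on the other strand), and each window is written 5′ to 3′ on the gene's strand.
MED1 (chr17:39451230-39451259, minus strand, motif from base 16 after the start): ttccgttggggAAGATGGCggcggcctcga
MED16 (chr19:893147-893176, minus strand, motif from base 23): tgttaccgaggAAGATGGCggcgccagacc
MED29 (chr19:39391398-39391427, plus strand, motif from base 43): acttccggcggtctacgcgaggAAGATGGC
MED25 (chr19:49818039-49818068, plus strand, motif from base -240): gccccgctcaAAGATGGCggctgactgagc
MED18 (chr1:28328872-28328901, plus strand, motif from base -157): caaaggaggccGCCATCTTtcatacagcag

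The genes with this motif had log2 relative half-lives from -1.62 (MED16) to 1.23 (MED18), with MED1, MED25 and MED29 also below the median mRNA. CCGGAAG, the core of ETS factor sites, occurred in 7 of the 25 promoters (28.0%, against 16.5% of protein-coding genes), those of MED7, MED11, MED15, MED17, MED18, MED29 and MED31. GGGCGG, a site of SP factors, occurred in 64.0% (against 64.3%) and CCAAT in 40.0% (against 42.1%). TATAAA occurred in 8.0% (against 12.4%), in MED7 and MED16. CACGTG occurred in 8.0% (10.9%), GCATGCGC in 8.0% (4.89%) and TTTCCCGC in 8.0% (2.65%). No binding was measured at these promoters, and the first 500 bp of each TU were not counted in PRO-seq.

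The genes that Mediator works with were described in the same way from 3 lists. Beside their counts stand the 8733 mRNAs tested, of which 45.4% were called above and 44.9% below. Of the 12 RNA polymerase II subunits 10 lay above the median mRNA and 2 below, with a median log2 relative half-life of 2.25. They ranged from -1.33 for POLR2A, the catalytic subunit (SE 0.0977, edgeR adjusted p = 1.2e-13), to 5.04 for POLR2F (SE 0.0712, edgeR adjusted p = 1.2e-31). Of the 16 general transcription factor genes tested, of 18 listed, 11 lay above and 4 below, with a median of 0.97. They ranged from -1.50 for the TFIIH subunit GTF2H2, which has near-identical copies that may share its reads, to 3.31 for the TFIIA subunit GTF2A2. All 12 tested coactivator and elongation genes, of 13 listed, lay below, with a median of -1.28, from -2.83 for CREBBP (SE 0.0588, edgeR adjusted p = 1.8e-27), a histone acetyltransferase, to -0.47 for CCNT1, the cyclin of the elongation kinase P-TEFb. The Mediator median of -0.40 lay between these lists, and the difference between lists was not tested. Of the 30 Mediator genes, 6 lay over the median of the general transcription factors (CDK8, MED30, CCNC, MED8, MED18 and MED4) and 5 under that of the coactivators (MED22, MED15, MED16, MED14 and CDK19).

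The counted transcript limits several of these values. For MED4, MED15, CDK8 and MED21 it is annotated as another type than protein-coding, for MED1 it holds under 80% of the longest coding sequence, and MED6, MED17 and MED26 share over 20% of their PRO-seq window with another counted TU of the same strand. Without these 8 genes, a subset chosen after seeing the data, 23 genes were tested, of which 8 lay above and 13 below, with a median fitted value of -0.45. The subset still holds CDK19 and MED29, counted on transcripts with 88.0% and 90.5% of the longest coding sequence. Values on both sides of the median mRNA were thus also present among genes counted on at least 80% of it.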

How the data were processed

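K562 cells were assayed with 4 total RNA-seq and 2 PRO-seq libraries. For each library the authors deposited raw read counts per transcript, without normalization, made with HTSeq on the longest transcript of a GENCODE gene from reads trimmed by Cutadapt and mapped to GRCh38 by HISAT2. By the methods, the first and the last 500 bp of each TU were not counted for PRO-seq. Tool versions and strand use are details not given in the sources used here. Lines that name no TU held between 66.5% and 88.6% of a library's records and were left out.

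Of 42371 transcript identifiers, 88.1% were matched to GENCODE on GRCh37, which gave symbols, lengths, coordinates and transcript types, and these lengths need not equal the ones used in the authors' counting. Promoters are from RefSeq (GRCh38.p14). Counts of an assay's libraries were summed before TPM was taken. The quasi-likelihood test of edgeR 4.0.16, run in R 4.3.3, was applied to each TU with TMM normalization, offsets for length, centering on the median mRNA and Benjamini-Hochberg adjustment over all TUs tested. DESeq2 (version 1.42.0) was an alternative. On simulated data of 10053 TUs, 200 carried a log2 change of 1 and all others lay at the median mRNA ratio. The edgeR step found 95.5% of the 200 and made 3 false calls. In the data 40.0% of TUs were called above and 50.4% below, so the simulation does not show how often those calls are false. Other steps used Python 3.11.15, scipy 1.17.1, numpy 2.4.6 and pandas 2.3.3.

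All members may be named. Full values were given for the kinase module, the longest gene, and the 3 highest and 3 lowest genes by half-life, RNA-seq and PRO-seq level, and of each partner list the extremes were named. Values of other genes are beyond that rule. A gene of the coactivator list is not reported here. The members, modules and lists were chosen with earlier results of these data known. Since no molecular identifiers were used, reads are not independent molecules and intervals cover counting error only.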

Additional observations from a re-analysis of the deposited data

Results flagged for a closer look

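In RNA-seq, 1 of the 4 libraries stood apart from the others for 2 of the 33 genes by Dixon's criterion, for which chance flags about 1 in 20 groups. For MED4, replicate 3 (106 TPM) lay above the other 3 (93.4, 93.8 and 93.6 TPM), with a gap of 0.968 of the whole range. For MED13L, replicate 4 (31.7 TPM) lay below the other 3 (36.2, 36.5 and 37.1 TPM), with a gap of 0.834 of the range. The direction and call of both genes were the same without that library.

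Noncoding genes and pseudogenes named after Mediator genes, which are not members of the list and enter only the counts over all TUs where they passed the minimums, gave signal above the 3 counts that a count of 0 allows. MED28-DT, a divergent transcript beside MED28, had 264 PRO-seq counts over 2 libraries and 30 RNA-seq counts over 4. MED15P9, annotated as a long noncoding RNA, had 293 PRO-seq counts and 35 RNA-seq counts. MED15P4 had 16 PRO-seq and 4 RNA-seq counts, and MED14OS, on the strand opposite MED14, had 6 PRO-seq and 20 RNA-seq counts. Pseudogenes can share reads with their parent gene, and reads of overlapping genes on opposite strands cannot be told apart if counting did not use strand.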

How the results depend on the processing

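The 12 genes called above and 16 called below became 6 and 6 when a 2-fold difference was tested. Of 8733 mRNAs, 2120 were then called above and 2024 below. They became 17 and 13 of 32 tested without TPM minimums, beside 6363 and 4910 of 14965 mRNAs. With DESeq2 they were 10 and 16, beside 3846 and 3795 of 8733 mRNAs. When each RNA-seq library was left out they were 11 and 16. In those settings 8723 to 8736 mRNAs were tested, of which 3921 to 3959 were called above and 3889 to 3916 below. The median of -0.40 was 0.227 without TPM minimums, and -0.251 without length scaling, and ranged from -0.438 to -0.344 with each library left out. The rho of 0.539 was 0.491 past the minimums and 0.565 without length scaling, and from 0.528 to 0.547 with each library left out. Without length scaling, 10 called genes turned: MED6 to -0.76, MED21 to -2.31, MED4 to -1.48, MED9 to 0.07, MED23 to -0.10, MED27 to -3.89, MED28 to 1.51, MED29 to 0.95, CDK8 to -0.32 and MED12 to 0.52. Without TPM minimums, MED9 turned to 0.31 and MED24 to 0.21, and MED1 and MED13 lost their call, as MED22 and MED31 did without length scaling. MED10 and MED11 were called above in both. In the other 14 alternatives, 27 of the 30 genes kept their call where they were tested, the exceptions being MED6, MED19 and MED23.

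Among the partner lists, RNA polymerase II subunits below numbered 1 without length scaling and 1 with a 2-fold difference, where general transcription factors numbered 7 above and 1 below. Without TPM minimums 2 of the latter lay below and 2 coactivator genes above, and without length scaling 3 coactivator genes lay above. Of 8733 mRNAs, 4035 were called above and 4032 below without length scaling. The 3 paralog differences kept their sign. The MED13 difference was 1.55 and the MED12 difference 5.24 without length scaling. With a replicate block, 10 genes lay above and 16 below, beside 3879 and 3840 of 8733 mRNAs, and MED6 and MED19 lost their call. Libraries of the assays share only a number (correlation of the replicate differences -0.0118 over 9997 TUs). A PRO-seq library left alone is taken to vary as the RNA-seq libraries do. What caused the changes was not tested. The alternatives with unshared bases as length and the subset without partial transcripts or shared windows were chosen after seeing the data. Genes with few PRO-seq counts, such as MED11 with 16, are limited by depth.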

Other observations

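The genes without a value under the minimums were fitted with at least 1 summed count in each assay. MED7 then lay at 3.63 (SE 0.228, edgeR adjusted p = 2.6e-56), on 37 PRO-seq counts. MED12L lay at -2.05 (SE 0.558, edgeR adjusted p = 0.00043), on 6 RNA-seq counts and a PRO-seq level of only 0.428 TPM. Of the PRO-seq window of MED7, 84.2% was not shared with the same-strand gene HAVCR2, which had 515 PRO-seq and 0 RNA-seq counts. In that fit, MED7 lay above CDK8 (2.77) and MED12L below MED22 (-1.78).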
